A study of Mus musculus with 14 samples.

Results

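Kruppel-like factors were followed here through the chromatin around 7 of their genes in Treg cells, measured by bulk ATAC-seq (transposase-accessible chromatin sequencing, in which a transposase inserts adapters where DNA is open). Klf2, Klf3, Klf4, Klf6, Klf7, Klf10 and Klf13 were taken as members. A window of the deposited count table was assigned to a member when, of all protein-coding start sites in GRCm38, that of the member lay nearest to its centre and within 100 kb. This gave 361 of 240778 windows, namely 61 for Klf2, 31 for Klf3, 39 for Klf4, 82 for Klf6, 49 for Klf7, 24 for Klf10 and 75 for Klf13. Each window spanned 201 bp around a peak summit. Because 215 of the 361 windows overlapped another, they stood for 227 separate regions, and overlapping windows share reads.

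All mice carried Foxp3AID, an allele that fuses Foxp3, the lineage-defining transcription factor of Treg cells, to an auxin-inducible degron and places ZsGreen and iCre downstream of it. The R26TIR1(F74G) mice also carried TIR1(F74G), the plant F-box protein that recognises the degron, at Rosa26 behind a CAG promoter and a loxP-flanked stop, so that it is made only after Cre has acted. The R26WT mice had no TIR1 and served as controls. Both genotypes received 5-ph-IAA, the ligand that joins TIR1 to the degron, and Treg cells were taken from spleen and lymph nodes after 3 days (4 R26WT and 4 R26TIR1(F74G) mice) or 7 days (3 and 3). Mice without the ligand were not analysed here, so the ligand itself is shared by every group. Each library came from a mouse named separately in the labels, and p-values measure the spread between these libraries. The labels do not give the activation state of the cells, and the mice were adult by the study's description. For bulk ATAC-seq the paper describes ZsGreen-positive cells, resting and activated, sorted on day 7 from Foxp3AID/WT mice. In such heterozygous females, by the paper, some Treg cells use the Foxp3WT allele and are spared by the ligand. ZsGreen is carried by the Foxp3AID allele, so cells sorted as ZsGreen-positive are those that use Foxp3AID. The labels name Treg cells on days 3 and 7, so how far this description covers each library is not known here. Accessibility does not measure Foxp3 protein, so degradation was not checked here. Foxp3 had 3 windows, of which none was within 1 kb of its start site.

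Kruppel-like factors bind GC-rich sequences such as GGGCGG and CACCC through zinc fingers at their C terminus and differ in the cofactors that their N termini recruit. In T cells Klf2 and Klf4 are associated with quiescence, and Klf2 activates S1pr1, which encodes the receptor for leaving lymph nodes. Klf6 and Klf7 are close relatives that mostly activate transcription, whereas Klf3 represses through CtBP and Klf10 and Klf13 repress through Sin3A.

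The sequences just before the start sites are shown for Klf2, Klf4, Klf6 and Klf13, which gave the leading difference between days, the gene sums with the smallest p-values between genotypes, and the most accessible promoter of the 7. Sequences are those of RefSeq for GRCm38.p6, read 5′ to 3′ on the strand of the gene, and cover the 250 bases before the start. Capitals mark matches, on either strand, to GGGCGG (the GC box), CACCC (the Kruppel-like box), CCAAT (the NF-Y box) or the MEF2 consensus. Klf2 lies on the plus strand at chr8:72318812-72319061, Klf4 on the minus strand at chr4:55532476-55532725, Klf6 on the plus strand at chr13:5861239-5861488 and Klf13 on the minus strand at chr7:63938916-63939165.
Klf2: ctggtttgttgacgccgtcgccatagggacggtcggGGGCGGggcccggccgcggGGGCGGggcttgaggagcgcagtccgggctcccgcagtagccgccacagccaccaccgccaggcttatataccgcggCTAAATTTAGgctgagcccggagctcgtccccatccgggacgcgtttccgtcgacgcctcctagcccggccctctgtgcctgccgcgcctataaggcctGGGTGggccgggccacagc
Klf4: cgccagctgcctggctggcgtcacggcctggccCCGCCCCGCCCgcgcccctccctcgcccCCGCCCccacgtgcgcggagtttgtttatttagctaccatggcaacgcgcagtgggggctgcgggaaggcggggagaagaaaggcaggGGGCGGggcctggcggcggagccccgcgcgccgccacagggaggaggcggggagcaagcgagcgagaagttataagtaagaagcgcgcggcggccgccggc
Klf6: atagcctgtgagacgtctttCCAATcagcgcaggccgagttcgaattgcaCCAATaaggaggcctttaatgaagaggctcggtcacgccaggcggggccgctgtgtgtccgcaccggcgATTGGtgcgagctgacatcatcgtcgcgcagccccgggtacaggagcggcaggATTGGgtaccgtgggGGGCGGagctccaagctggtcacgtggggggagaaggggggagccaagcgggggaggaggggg
Klf13: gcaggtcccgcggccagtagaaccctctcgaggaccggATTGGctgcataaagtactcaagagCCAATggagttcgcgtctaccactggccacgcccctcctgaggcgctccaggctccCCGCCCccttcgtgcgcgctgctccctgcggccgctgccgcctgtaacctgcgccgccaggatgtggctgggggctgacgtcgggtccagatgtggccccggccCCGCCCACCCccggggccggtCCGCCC

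Of the 7 members, 6 were matched in the promoter set, and Klf10 was not. Matches were counted over 250 bases before and 50 after each start. For Klf7 the stretch (chr1:64121340-64121639) belongs to another start, inside the gene as placed here (chr1:64029448-64122345). Its matches and GC content therefore do not describe the start site used for the Klf7 windows. All 6 had a GGGCGG match, with 6 in Klf3, 4 in Klf4, 3 in Klf13, 2 in Klf2 and 1 each in Klf6 and Klf7, while 35.9% of 27025 promoters of the same length, 300 bases, had at least 1. CACCC was found in Klf2, Klf3, Klf7 and Klf13 and in 56.7% of all promoters, and CCAAT in Klf6 (4 matches) and Klf13 (2) and in 37.9%. A match to the MEF2 consensus, the site of factors through which Klf2 is known to be induced, stood at base 133 of the Klf2 sequence and was found in 0.566% of all promoters. The forkhead letters TGTTTAC and the AP-1 letters TGANTCA were found in none of the 6 matched member promoters, against 3.55% and 7.93% of all promoters. GC content ran from 58.3% for Klf7 to 76.7% for Klf3, above the median of 52.7% in all 6. These are matches of letters in a fixed stretch and do not show that a factor was bound.

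The accessible chromatin was unevenly placed around the 7 genes. Klf6 and Klf13 had more windows than 99.7% and 99.5% of the 15878 genes with any, Klf2 more than 98.6%, and Klf10, with the fewest of the members, more than 86.3%. Among the members, 10.8% of windows lay within 1 kb of the start site, compared with 23.4% of all 201043 windows assigned within the same distance, and 23.0% lay inside the member's own gene, compared with 47.9% of all windows inside their nearest gene. The median distance to the start site was 32500 bp for member windows and 13132 bp for all.

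**Figure D1:**
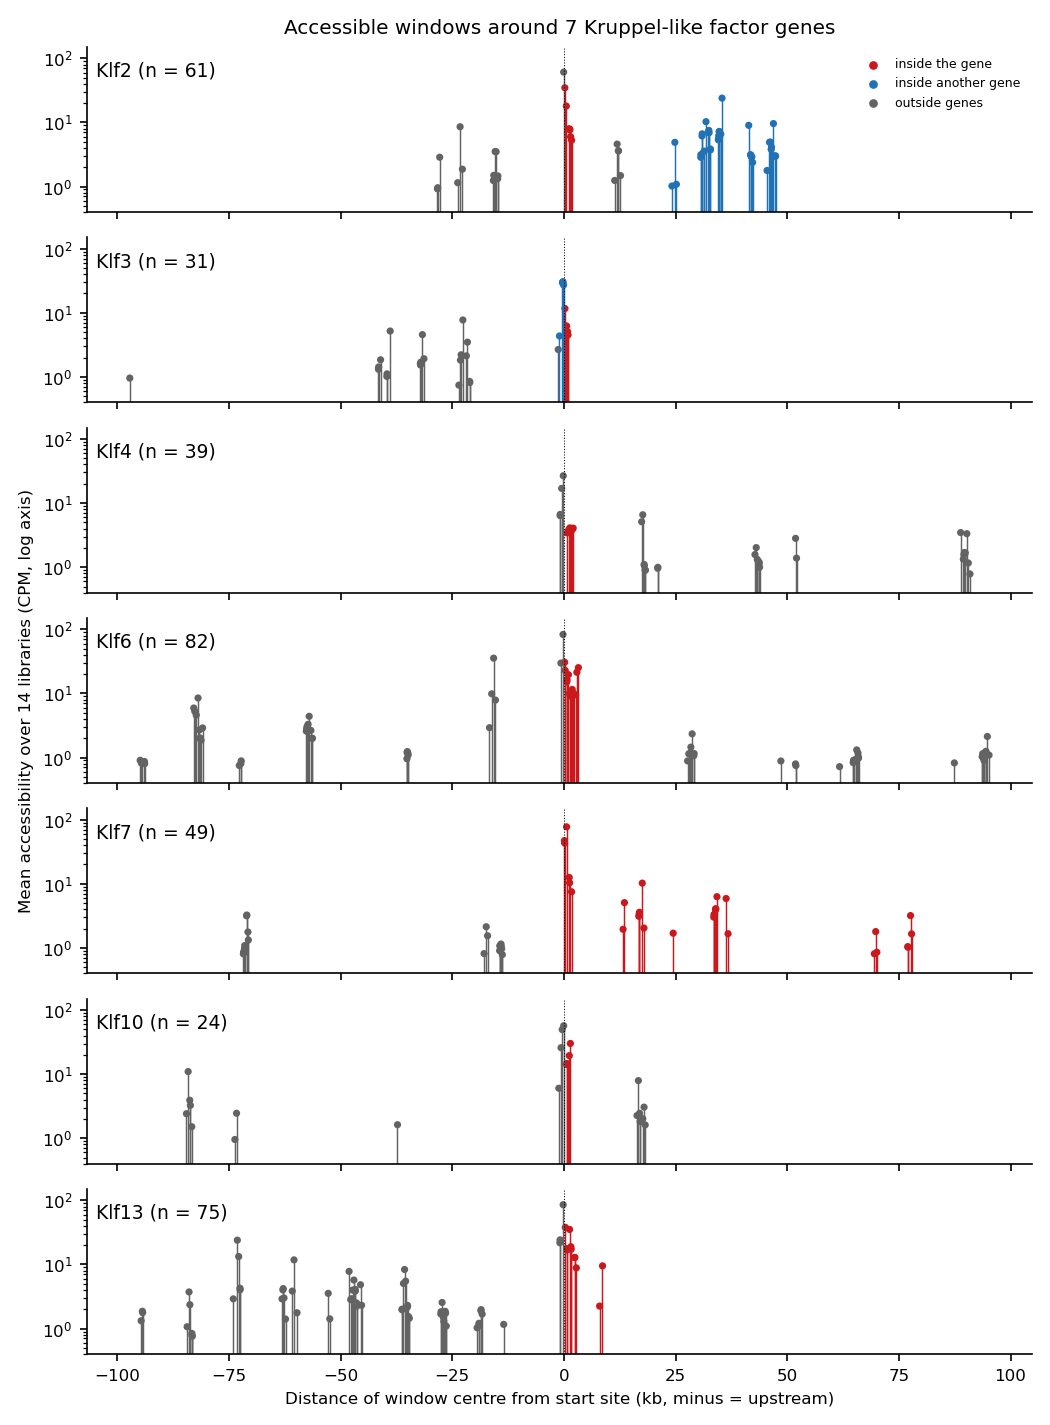
Mean accessibility over 14 libraries (CPM, scaled counts as a share of the library, on a log axis) of every member window against the distance of its centre from the start site in kb, with upstream to the left, in 1 panel for each of the 7 genes, coloured by whether the window lies inside the gene, inside another gene or outside genes. The highest windows of each gene lie at or next to the start site, and Klf13 windows extend mainly upstream whereas Klf2 windows extend mainly downstream.

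Each gene had its own layout. Klf13 (chr7:63886351-63938915, minus strand) had 64 of its 75 windows upstream of the start site, and Klf3 (chr5:64803521-64832901, plus strand) 26 of 31. Klf2 (chr8:72319062-72321654, plus strand) is a short gene, and 36 of its 61 windows lay downstream inside Eps15l1, a neighbouring gene whose own start site was farther away. Klf7 (chr1:64029448-64122345, minus strand) was the only member with most of its windows, 31 of 49, inside its own gene. Klf6 (chr13:5861489-5870393, plus strand), Klf4 (chr4:55527137-55532475, minus strand) and Klf10 (chr15:38291464-38300711, minus strand) had 15 of 82, 9 of 39 and 5 of 24 inside. Exons, introns and untranslated regions were not used here.

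To compare genes, counts were summed per gene over 1 window for each region and expressed in CPM (per 1000000 counts of the library, after TMM scaling). The sums within 1 kb of the start site, called the promoter level below, averaged 165 CPM for Klf13, 160 CPM for Klf6, 147 CPM for Klf10, 124 CPM for Klf7, 114 CPM for Klf2, 57.6 CPM for Klf3 and 53.8 CPM for Klf4. The median promoter of 11444 was at 26.7 CPM, and Klf13 and Klf6 ranked 17 and 30 from the top. Summed over 100 kb, Klf13 (410 CPM) and Klf6 (395 CPM) ranked 6 and 9 of 15867 genes and Klf2 (282 CPM) ranked 57, but such sums grow with the number of regions. The promoter contributed 40.3% of the sum for Klf2, 40.4% for Klf6 and 40.3% for Klf13, and 53.6% to 60.0% for the other 4 genes.

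The promoter levels varied little between mice. The coefficient of variation over the 14 libraries was 7.44% for Klf6, 8.06% for Klf13, 8.42% for Klf10, 8.93% for Klf7, 9.40% for Klf4 and 11.3% for Klf3, and was highest for Klf2 at 16.3%. In the order of promoter levels the ranges over mice overlapped between neighbours except at the step from Klf2 to Klf3. Klf13 lay between 140 and 188 CPM, Klf6 between 135 and 173 CPM, Klf10 between 114 and 160 CPM, Klf7 between 103 and 141 CPM and Klf2 between 72.6 and 142 CPM. The ranges of Klf3, from 42.6 to 67.9 CPM, and of Klf4, from 43.8 to 59.6 CPM, overlapped each other and lay below those of the other 5 genes.

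**Figure D2:**
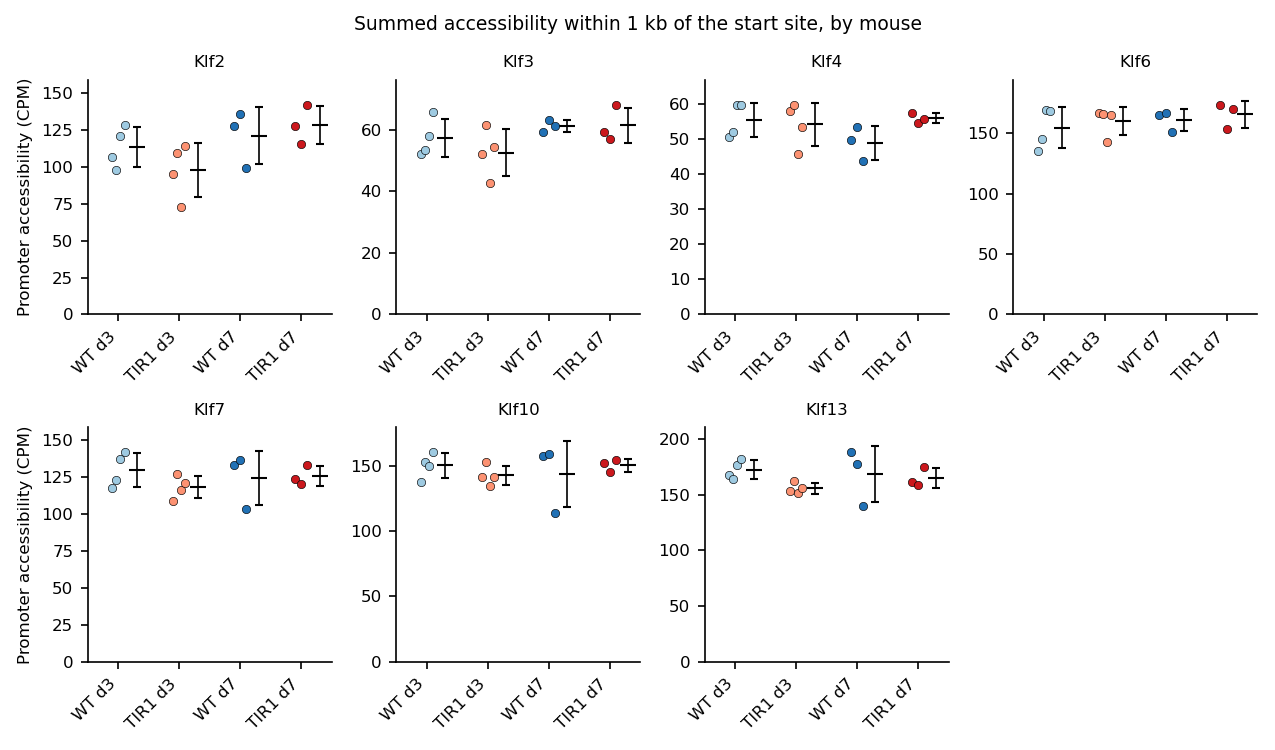
Promoter level of each of the 7 genes (CPM, summed within 1 kb of the start site) by mouse, for R26WT (WT) and R26TIR1(F74G) (TIR1) on days 3 and 7 (d3, d7). Each point is a mouse, with the group mean and SD beside it. The genotypes overlap on day 3 for every gene but Klf13, and the day 7 mice of Klf2 (124 ± 15.3 CPM) average above those of day 3 (105 ± 17.2 CPM).

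Library totals ran from 5653289 to 20184487 counts, and R26TIR1(F74G) day 3 replicate 1 was the shallowest. The share of counts within 1 kb of any start site was 42.4% in R26TIR1(F74G) day 3 replicate 3 and in R26WT day 7 replicate 3, and 43.8% to 46.6% in the other 12 libraries. For 6 of the 7 members the lowest promoter level of all 14 libraries was in 1 of these 2, so comparisons over all groups were repeated without them. Windows were found around the Treg and T cell markers Foxp3, Il2ra, Ctla4, Ikzf2, Cd4, Cd3e and Tnfrsf18. For B cells 6 of 8 marker genes had windows, with none at Ms4a1, and the promoter levels of Cd79b and Ebf1 together were 8.61 to 10.6 CPM in R26WT and 8.21 to 13.3 CPM in R26TIR1(F74G) on day 3, and 8.46 to 13.0 and 7.91 to 10.1 CPM on day 7. Myeloid markers (6 of 8 with windows, none at Csf1r and Fcgr3) summed to between 22.9 and 28 CPM in every library. Both NK cell markers, Ncr1 and Klrb1c, had windows within 100 kb, 18 of them at Klrb1c. Neither had a promoter window, and nor did Foxp3 and Tnfrsf18. The CD8 T cell markers Cd8a and Cd8b1 had promoter levels of 1.33 and 25.1 CPM, beside 9.31 CPM for Cd4. In bulk libraries, a smaller share of cells with an open site and less opening in each cell cannot be told apart.

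Whether the chromatin of these genes differed between mice with and without the means to degrade Foxp3 was asked for each of the 361 windows on each day. No member window passed the threshold of 0.05 in edgeR's quasi-likelihood test, with p-values adjusted over all windows tested, between genotypes on day 7 (0 of 359, against 0.00463% of all windows), on day 3 (0 of 357, against 0%) or over both days (0 of 361, against 0.0112%). DESeq2 called none on either day (against 0% of all windows) and none over both days (against 0.505%), where it gave an adjusted p to 77 of the 361. Unadjusted p-values below 0.05 were found for 23 member windows on day 7 (6.41%, against 5.95% of all windows), 12 on day 3 (3.36%, against 7.55%) and 24 over both days (6.65%, against 6.73%). The median log2 fold change of member windows, R26TIR1(F74G) over R26WT, was 0.04 on day 7 and 0.00 on day 3, and 0.03 with the days joined, beside −0.01, 0.01 and 0.00 for all windows.

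Fold changes of the deeper windows lay close to 0. Among the 148 member windows that averaged 50 or more counts per library, the central 95% of log2 fold changes ran from −0.32 to 0.46 on day 7 and from −0.36 to 0.24 on day 3, and over both days from −0.23 to 0.32. For the 66750 windows of all genes at that depth the same limits were −0.37 to 0.40, −0.41 to 0.31 and −0.30 to 0.25. The mice of the 2 genotypes did not overlap on day 7 in 54 member windows (15%, against 11.8% of all windows), of which 35 were higher in R26TIR1(F74G), and on day 3 in 6 (1.66%, against 4.09%). Of the 54, Klf6 held 16 (of its 82 windows), Klf13 15 (of 75), Klf2 8 (of 61) and Klf7 7 (of 49). Klf4 held 6 (of 39), Klf10 2 (of 24) and Klf3 0 (of 31).

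Klf4 is a factor associated with quiescence and best known for reprogramming. Over both days 34 of its 39 windows had a positive log2 fold change between genotypes (against 50.7% of all windows). On day 7 alone 30 of 39 did (against 49.0%), and on day 3 alone also 30 of 39 (against 51.2%). Overlapping windows share reads, so these are not independent values. Its windows summed over 100 kb were 96.4, 96.8, 104 and 107 CPM in R26WT and 107, 114, 96.4 and 105 CPM in R26TIR1(F74G) on day 3. On day 7 they were 90.4, 99.7 and 87.6 CPM in R26WT and 102, 97.7 and 102 CPM in R26TIR1(F74G). The genotypes overlapped on both days, with the R26TIR1(F74G) mice mostly in the upper part of the range.

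The mean sum of Klf4 was 97.4 ± 6.86 CPM (SD, n = 7) in R26WT and 103 ± 5.90 CPM (n = 7) in R26TIR1(F74G). In edgeR, with library factors taken from the summed table, the log2 fold change was 0.13 (SE 0.04, adjusted p = 0.158). DESeq2 gave the same size and an adjusted p of 0.039, past the threshold, as for 1.81% of the 11868 genes to which it gave an adjusted p. With the library factors of the windows, on which the CPM values rest, edgeR gave 0.09 (SE 0.06, adjusted p = 0.519). The promoter level of Klf4 on day 7 was 49.7, 53.3 and 43.8 CPM in R26WT and 57.4, 54.7 and 55.6 CPM in R26TIR1(F74G). These groups did not overlap, as for 11.8% of all windows on day 7 (the share of all promoters was not counted). The log2 fold change was 0.17 (SE 0.07, adjusted p = 0.555 in edgeR). On day 3 it was 0.06 with the factors of the promoter table and −0.04 with those of the windows. The window with the smallest p-value over both days for Klf4 was inside the gene, 1299 bp downstream of the start (chr4:55531076-55531277). It was between 2.71 and 4.33 CPM in R26WT and between 3.34 and 4.99 CPM in R26TIR1(F74G), and its log2 fold change was 0.29 (SE 0.13, adjusted p = 0.71 in edgeR).

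Klf6, an activator of GC-box genes, gave a similar picture at a higher level. Its sums on day 3 were 349, 375, 416 and 403 CPM in R26WT and 414, 429, 362 and 414 CPM in R26TIR1(F74G). On day 7 they were 389, 405 and 358 CPM in R26WT and 410, 382 and 428 CPM in R26TIR1(F74G). The groups overlapped on both days. Means were 385 ± 25.1 CPM in R26WT and 406 ± 24.8 CPM in R26TIR1(F74G) (SD, n = 7 each), and the log2 fold change over both days was 0.11 (SE 0.03, adjusted p = 0.14 in edgeR). DESeq2 placed it past the threshold (adjusted p = 0.043), and the library factors of the windows gave 0.07 (SE 0.05, adjusted p = 0.541). The 2 libraries lowest near start sites held the lowest R26TIR1(F74G) value on day 3 and the lowest R26WT value on day 7, and without them the log2 fold change was 0.12.

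The most accessible single window of Klf6 lay 201 bp upstream of the start (chr13:5861188-5861389). It was at 67.2, 75.7, 92.9 and 89.8 CPM in R26WT and 92.8, 85.5, 78.2 and 85.0 CPM in R26TIR1(F74G) on day 3, and at 86.5, 87.6 and 80.2 CPM against 81.7, 75.9 and 83.5 CPM on day 7. The log2 fold change over both days was 0.00 (SE 0.08), beside 0.07 (SE 0.05) for the Klf6 sum with the same library factors. The Klf6 promoter level gave 0.09 (SE 0.04, adjusted p = 0.306 in edgeR) with the factors of the promoter table. With those of the windows it gave 0.04 (SE 0.07, adjusted p = 0.865). Whether the window differed from the sum was not tested. A weak window 95181 bp downstream (chr13:5956570-5956771, mean 1.09 CPM) had the smallest p-value over both days for this gene, with a log2 fold change of 0.65 (SE 0.25, adjusted p = 0.622 in edgeR). On day 3, 62 of 81 tested Klf6 windows had a positive log2 fold change (against 51.2% of all windows). On day 7, 34 of 80 did (against 49.0%). Klf13 and Klf2 leaned the other way on day 3, with 23 of 74 and 22 of 61 windows positive.

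No member gene passed the threshold in edgeR on day 7 (0 of 7, against 0% of all genes), on day 3 (0 of 7, against 0.107%) or with the days joined (0 of 7, against 0.0882%). Unadjusted p-values below 0.05 were found for 0 of the 7 on day 7 (against 7.76% of all genes), for 2 on day 3, Klf4 and Klf6 (against 16.8%), and for the same 2 over both days (against 14.1%). With the library factors of the windows, the 2 on day 3 were instead Klf2 (−0.16, SE 0.08, adjusted p = 0.272) and Klf7 (−0.15, SE 0.07, adjusted p = 0.265), both lower in R26TIR1(F74G). With those factors 2730 of 15850 genes had an unadjusted p-value below 0.05 on day 3. The median log2 fold change of all genes was then −0.06. Outside the comparison over both days DESeq2 called no member gene, whether on day 7 (against 0.00631% of all genes), on day 3 (against 0.714%), between days (against 0.0063%) or for the interaction (against 0.0063%). In the remaining sums the log2 fold changes over both days were −0.05 for Klf2, 0.00 for Klf3, −0.03 for Klf7, 0.01 for Klf10 and −0.04 for Klf13, each with an interval of 2 SE that included 0. With the library factors of the windows these were −0.09, −0.04, −0.07, −0.03 and −0.08, so that the signs of Klf3 and Klf10 turned, and the median of all genes moved from 0.00 to −0.04.

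**Figure D3:**
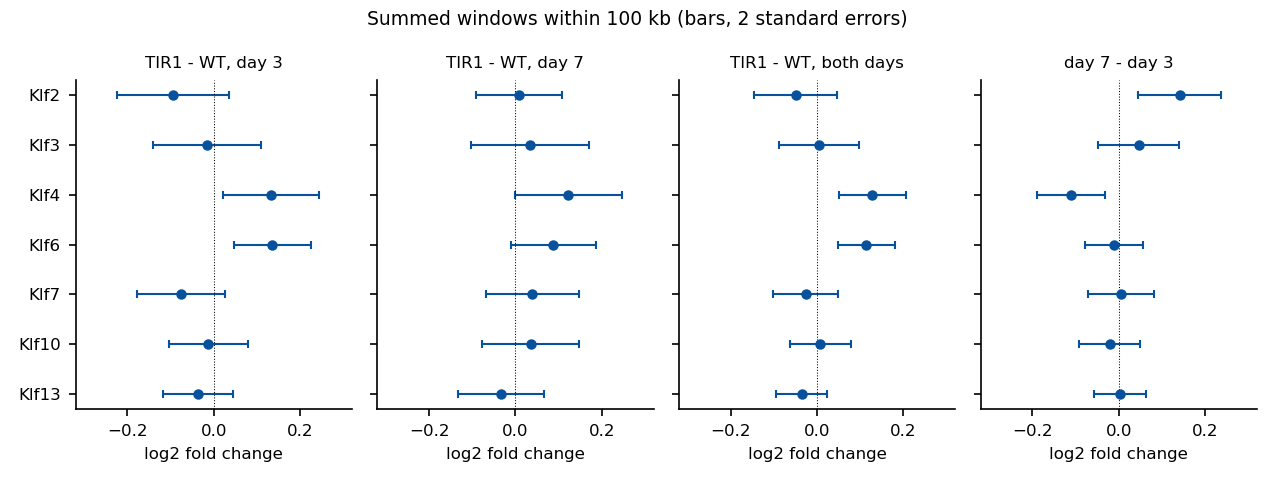
Log2 fold change of the windows summed over 100 kb for each of the 7 genes, for R26TIR1(F74G) (TIR1) over R26WT (WT) on each day and on both together, and for day 7 over day 3. Points are edgeR estimates and bars reach 2 SE to each side. Over both days the bars of Klf4 (0.13) and Klf6 (0.11) lie above 0. For day 7 over day 3 that of Klf2 (0.14) lies above and that of Klf4 (−0.11) below 0. With the library factors of the windows, not drawn, 2 SE include 0 for Klf4 (0.09, SE 0.06) and Klf6 (0.07, SE 0.05) over both days. The same holds for Klf4 between days (−0.10, SE 0.06), but not for Klf2 (0.15, SE 0.06).

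The window with the smallest p-value between genotypes among all members, over both days and on day 3, was inside Klf7, a relative of Klf6, 13544 bp downstream of the start (chr1:64108701-64108902). On day 3 it was at 5.28, 6.28, 6.42 and 5.78 CPM in R26WT and at 4.50, 3.54, 3.80 and 3.62 CPM in R26TIR1(F74G), and on day 7 at 6.07, 5.99 and 5.40 CPM against 4.22, 4.77 and 5.41 CPM. On day 3 every R26TIR1(F74G) mouse was below every R26WT mouse, and on day 7 a single R26TIR1(F74G) mouse reached the lowest R26WT mouse. The log2 fold change was −0.49 over both days (SE 0.12, adjusted p = 0.312 in edgeR) and −0.66 on day 3 (SE 0.18, adjusted p = 0.414). Mouse names begin with AC or E in the labels, and the meaning of the prefix is not given. Within AC mice the means on day 3 were 5.99 CPM in R26WT and 4.02 CPM in R26TIR1(F74G), within E mice 5.78 CPM (1 mouse) and 3.71 CPM, and within AC mice on day 7 5.82 CPM and 4.50 CPM. The promoter of Klf7 differed less, with 127 ± 13.6 CPM in R26WT and 121 ± 7.80 CPM in R26TIR1(F74G) (SD, n = 7 each) and a log2 fold change of −0.02 (SE 0.04, adjusted p = 0.90 in edgeR), or −0.07 (SE 0.07, adjusted p = 0.792) with the library factors of the windows. The Klf7 sum over 100 kb on day 3 was 205, 209, 231 and 229 CPM in R26WT and 187, 205, 198 and 198 CPM in R26TIR1(F74G). The genotypes did not overlap there, by a narrow margin, and the log2 fold change was −0.08 (SE 0.05, adjusted p = 0.462 in edgeR). With the library factors of the windows, on which the CPM values rest, it was −0.15 (SE 0.07, adjusted p = 0.265), beside a median of −0.06 for all genes. The share of all gene sums without overlap was not counted.

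On day 7 the smallest p-value was at a Klf2 window 34660 bp downstream of the start, inside Eps15l1 (chr8:72353622-72353823). It was at 3.88, 4.83 and 5.85 CPM in R26WT and at 7.17, 6.85 and 8.09 CPM in R26TIR1(F74G), so that the genotypes did not overlap. The log2 fold change was 0.65 (SE 0.18, adjusted p = 0.482 in edgeR). On day 3 the values were 5.11, 4.56, 6.15 and 6.90 CPM against 9.53, 6.71, 4.62 and 6.84 CPM, which overlapped, with a log2 fold change of 0.22. Within AC mice on day 3 the means were 5.27 CPM and 8.12 CPM, whereas within E mice the order was the opposite, at 6.90 CPM and 5.73 CPM. An overlapping window centred 34575 bp downstream gave 0.44 over both days (adjusted p = 0.474) and is not a separate result. The most accessible Klf2 window beyond 1 kb lay close by, 35402 bp downstream (chr8:72354364-72354565), and averaged 23.9 CPM with a log2 fold change of −0.21 over both days. Neighbouring windows in this stretch thus had opposite signs.

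**Figure D4:**
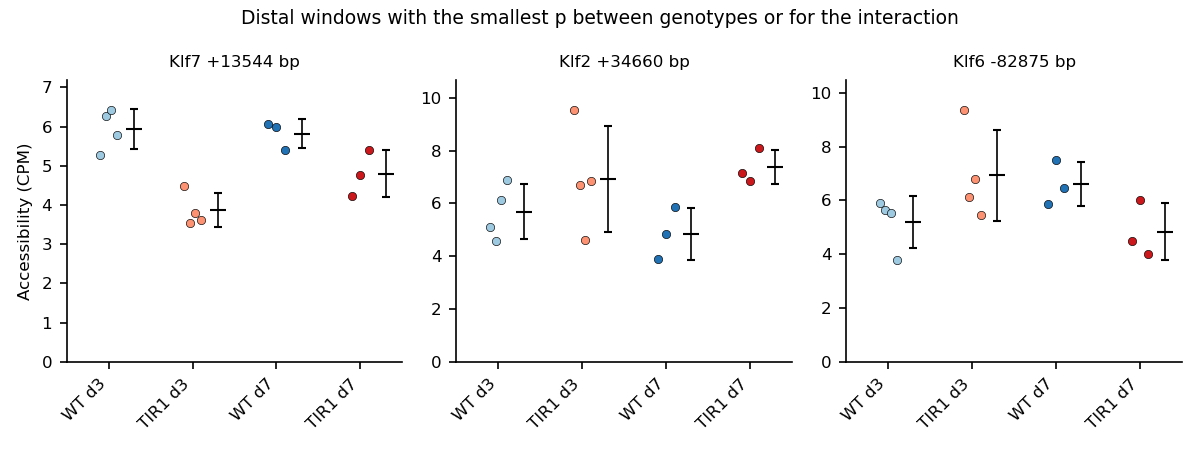
Accessibility (CPM) by mouse of the windows with the smallest p-value between genotypes or for the interaction, for R26WT (WT) and R26TIR1(F74G) (TIR1) on days 3 and 7 (d3, d7), with each group's mean and SD beside the mice. In the Klf7 window the R26TIR1(F74G) mice lie below the R26WT mice on day 3 (3.54 to 4.50 against 5.28 to 6.42 CPM), and in the Klf2 window they lie above them on day 7 (6.85 to 8.09 against 3.88 to 5.85 CPM).

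At the repressors Klf3, Klf10 and Klf13 no window or sum passed the threshold. Klf3 was at 29.2, 27.6, 29.4 and 37.1 CPM in R26WT and 29.9, 31.4, 23.7 and 27.7 CPM in R26TIR1(F74G) on day 3 in its strongest window, 205 bp upstream of the start (chr5:64803216-64803417), with a log2 fold change over both days of −0.10. No Klf3 window had an unadjusted p-value below 0.05 between genotypes on either day or over both. Klf10, induced by TGF-β, had its strongest window 47 bp upstream (chr15:38300658-38300859, mean 56.8 CPM), with a log2 fold change of −0.11 (SE 0.08), and another at 30.1 CPM inside the gene, 1446 bp downstream, with −0.16. Single-window estimates rest on the library factors of the windows. With these factors the median promoter level of all genes stood at −0.05 over both days. The strongest window of Klf13, known for its part in Ccl5 transcription in activated T cells, was the most accessible of all 361, 170 bp upstream of the start (chr7:63938985-63939186, mean 85.5 CPM). It was at 90.5, 84.1, 93.8 and 98.6 CPM in R26WT and 85.8, 82.6, 76.3 and 79.5 CPM in R26TIR1(F74G) on day 3, and at 97.2, 91.8 and 70.8 CPM against 78.3, 79.8 and 88.2 CPM on day 7. The R26TIR1(F74G) mice were in the lower part of the range on day 3, and the log2 fold change over both days was −0.14 (SE 0.08, adjusted p = 0.785 in edgeR). A Klf13 window 47308 bp upstream (chr7:63986123-63986324, mean 3.98 CPM) went the other way, with 0.38 (SE 0.14, adjusted p = 0.602), and its genotypes did not overlap on day 7. The Klf13 promoter level was 167, 164, 177 and 182 CPM in R26WT and 153, 162, 152 and 156 CPM in R26TIR1(F74G) on day 3. It was again without overlap, as were 4.09% of all windows on day 3 (the share of all promoters was not counted). Its log2 fold change on that day was −0.04 (SE 0.05, adjusted p = 0.722 in edgeR) with the factors of the promoter table and −0.15 (SE 0.08, adjusted p = 0.34) with those of the windows, for which the median promoter of all genes stood at −0.10.

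Day 7 was compared with day 3 over both genotypes, with genotype in the fit. No member window passed the threshold in edgeR (0 of 361, against 0.00332% of all windows), 19 had an unadjusted p-value below 0.05 (5.26%, against 5.47%), and DESeq2 called none of the 254 to which it gave an adjusted p (against 0.00911%). No member gene was called on summed windows (0 of 7, against 0%), and 2, Klf2 and Klf4, had an unadjusted p-value below 0.05 (against 5.68%). With the library factors of the windows the log2 differences between days were 0.15 for Klf2 (SE 0.06) and −0.10 for Klf4 (SE 0.06), and for Klf4 the interval of 2 SE then included 0. The days were taken from different mice, and whatever else differed between the days of collection cannot be told apart from the length of treatment.

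The smallest p-value between days was at Klf2, inside the gene 534 bp downstream of the start (chr8:72319496-72319697). On day 3 the window was at 15.2, 13.5, 17.3 and 16.9 CPM in R26WT and at 11.9, 16.8, 9.84 and 19.2 CPM in R26TIR1(F74G). On day 7 it was at 23.6, 25.1 and 16.2 CPM in R26WT and at 22.9, 19.6 and 23.9 CPM in R26TIR1(F74G). All but 1 of the day 7 mice, R26WT replicate 3, were above every day 3 mouse. The means were 15.1 ± 3.14 CPM (SD, n = 8) on day 3 and 21.9 ± 3.35 CPM (n = 6) on day 7, and the log2 fold change was 0.54 (SE 0.11, adjusted p = 0.129 in edgeR). Without R26WT day 7 replicate 3, the lowest day 7 mouse, it was 0.61 (adjusted p = 0.00541 in edgeR). Without R26TIR1(F74G) day 3 replicate 4, the highest day 3 mouse, it was 0.61 (adjusted p = 0.0259). Without the 2 libraries lowest near start sites, chosen after seeing the data, it was 0.52 (adjusted p = 0.0211). That choice also removes R26WT day 7 replicate 3. These passed the threshold, but leaving out such mice widens the gap by construction. Without R26WT day 7 replicate 2, the highest day 7 mouse, it was 0.50 (adjusted p = 0.641). Without R26TIR1(F74G) day 3 replicate 3, the lowest day 3 mouse, it was 0.46 (adjusted p = 0.284). Over all alternatives the log2 fold change stayed between 0.46 and 0.61, with adjusted p-values from 0.00541 to 0.641. Within AC mice the means were 15.3 and 14.4 CPM on day 3 in R26WT and R26TIR1(F74G) and 21.6 and 21.2 CPM on day 7.

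Of the 3 windows within 1 kb of the Klf2 start, the estimate between days was larger in those farther downstream, a trend that was not tested. In the window 60 bp upstream (chr8:72318902-72319103), the strongest of the gene at a mean of 60.9 CPM, day 3 mice were at 59.1, 55.4, 66.2 and 72.7 CPM in R26WT and 59.5, 59.6, 41.5 and 59.6 CPM in R26TIR1(F74G), and day 7 mice at 64.9, 66.7 and 55.6 CPM and 62.9, 59.9 and 69.0 CPM. These overlapped widely, with a log2 fold change of 0.10. The window between them, 209 bp downstream and named after its values were seen, gave 0.35 (SE 0.10, adjusted p = 0.744). Summed over the promoter, day 7 exceeded day 3 by 0.23 on the log2 scale (SE 0.06, adjusted p = 0.336 in edgeR), and over 100 kb by 0.14 (SE 0.05, adjusted p = 0.857). Of the 61 Klf2 windows, 43 had a positive log2 fold change between days, while 7 of the 39 Klf4 windows did (against 48.8% of all windows).

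**Figure D5:**
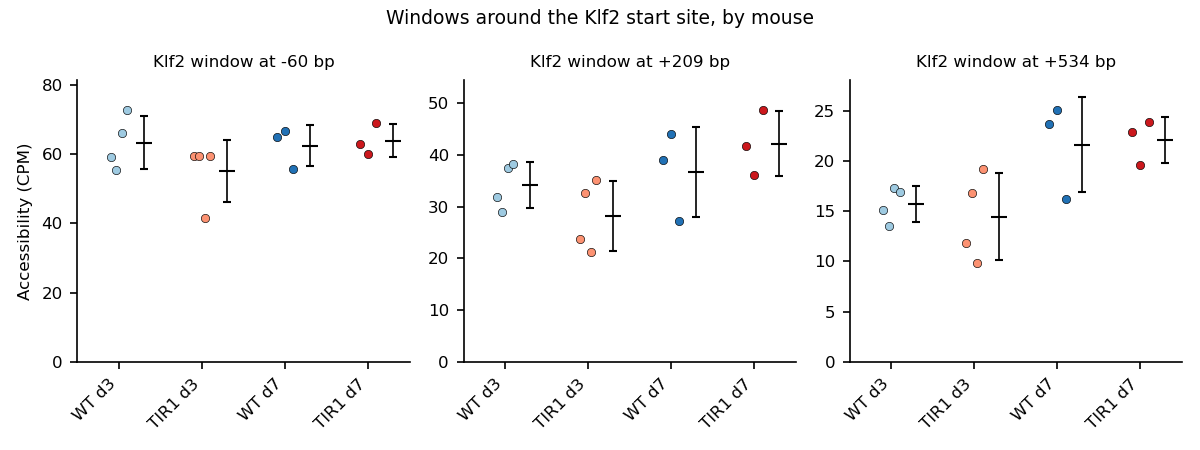
Accessibility (CPM) by mouse of the windows around the Klf2 start site, for R26WT (WT) and R26TIR1(F74G) (TIR1) on days 3 and 7 (d3, d7), with each group's mean and SD beside the mice. In the window 534 bp downstream the day 7 mice (21.9 ± 3.35 CPM) lie mostly above the day 3 mice (15.1 ± 3.14 CPM), while in the window 60 bp upstream the days overlap.

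Whether the genotypes differed by another amount on day 7 than on day 3 was tested as an interaction. No member window passed (0 of 361, against 0% of all windows), 13 had an unadjusted p-value below 0.05 (3.6%, against 6.32%), and DESeq2 called none (against 0%). No member gene passed on summed windows (0 of 7, against 0%, with 0 at an unadjusted p-value below 0.05, against 10.2%). The smallest p-value was 82875 bp upstream of Klf6 (chr13:5778514-5778715). This window was at 5.89, 5.62, 5.53 and 3.78 CPM in R26WT and 9.35, 6.12, 6.78 and 5.47 CPM in R26TIR1(F74G) on day 3, and at 5.88, 7.50 and 6.45 CPM against 4.49, 6.02 and 4.0 CPM on day 7. R26TIR1(F74G) was mostly the higher genotype on day 3 and mostly the lower on day 7, and the interaction was −0.83 on the log2 scale (SE 0.26, adjusted p = 0.651 in edgeR).

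Across the 14 libraries the promoter levels of the members moved together to differing degrees. Pearson's r of the log2 CPM values was 0.91 between Klf7 and Klf13, 0.87 between Klf7 and Klf10 and 0.86 between Klf2 and Klf3, and 0.38 at the lowest, between Klf3 and Klf10. Among 9432 promoters with 100 or more counts on average, those most like each member were Akt2 (0.96) for Klf2, B3gnt4 (0.93) and Stat6 (0.93) for Klf3, Swt1 (0.95) and Acot7 (0.93) for Klf4, Enpp5 (0.91) and Jun (0.90) for Klf6, Csgalnact2 (0.95) and Rbm15 (0.94) for Klf7, Usp1 (0.98) and Ilvbl (0.98) for Klf10 and Ccdc88c (0.94) and Socs1 (0.94) for Klf13. These are descriptions over 14 points that share library, depth and the share of counts near start sites, and the groups are pooled in them.

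Relatives and partners of the members were counted from lists set by gene family or known role. Of 10 other Kruppel-like family genes 9 had windows and 6 a promoter window, with Klf11 (113 CPM), Klf16 (85.2 CPM) and Klf9 (83.5 CPM) at levels within the range of the members. Klf8, Klf14, Klf15 and Klf17 had no promoter window. All 9 Sp family genes, which encode the zinc finger proteins closest to the Kruppel-like factors, had windows, led by the promoters of Sp4 (162 CPM), Sp1 (149 CPM) and Sp3 (112 CPM). None of their 99 and 193 windows was called in any of the 5 comparisons, and the median log2 fold change between genotypes over both days was −0.04 and −0.07. Unadjusted p-values below 0.05 were found on day 3 for 25 of 99 windows of the other Kruppel-like genes and 22 of 189 of the Sp genes (against the 7.55% of all windows), on day 7 for 7 of 99 and 11 of 191 (against 5.95%) and over both days for 4 of 99 and 16 of 193 (against 6.73%). For the interaction they were found for 17 of 99 and 10 of 193 (against 6.32%), and between days for 4 of 99 and 8 of 193 (against 5.47%).

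Among 24 genes upstream of the members or acting with them, 23 had windows and 19 a promoter window. Foxo3 (97.8 CPM) and Foxo1 (82.9 CPM), the forkhead factors that act on Klf2, Mef2d (91.0 CPM) and Fbxw7 (78.7 CPM), a ubiquitin ligase subunit that targets Klf2, were the most accessible. None of 765 windows was called, 65 had an unadjusted p-value below 0.05 between genotypes over both days (against 6.73%) and 62 of 747 on day 3 (against 7.55%), and the median log2 fold change was −0.04. Of 12 genes known as Klf2 targets in lymphocytes or endothelium, all had windows and 8 a promoter window. The cell cycle inhibitor Cdkn1b was at 127 CPM, and the egress receptor S1pr1 and the lymph node homing receptor Ccr7 at 37.4 CPM each. None of their 274 windows was called, with 30 at an unadjusted p-value below 0.05 (against 6.73%) and a median of −0.06 between genotypes over both days, and with 20 (against 5.47%) and a median of 0.08 between days. Promoter levels of resting T cell markers summed to 255 to 287 CPM in R26WT and 229 to 299 CPM in R26TIR1(F74G) on day 3, and to 268 to 283 and 268 to 279 CPM on day 7. Those of activated T cell markers summed to 176 to 197 CPM in R26WT and 171 to 205 CPM in R26TIR1(F74G) on day 3. On day 7 they summed to 182 to 200 and 190 to 201 CPM. No window of the 8 marker lists was called in any comparison, and the part of other cell types in the member values was not tested.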

How the data were processed

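Bulk ATAC-seq was measured in 14 Treg cell libraries. The authors aligned reads with Bowtie2 to mm10, called peaks with MACS2, merged reproducible peaks and counted reads around their summits with featureCounts, and the deposited values are these raw counts per window and library. Every deposited window had a mean count of at least 10.1, and duplicate or transposase-offset handling is contained in the counts. Library totals are given with the results. Reads amplified by PCR carried no molecular identifiers, so they are not separate molecules.

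Groups and mice were taken from the labels, and no column was left unmatched. Windows were assigned to the nearest protein-coding start site in RefSeq coordinates of GRCm38, leaving out 459 of 21900 genes without a strand. Whether deposited starts count from 0 or 1 is not given in the sources used here. Counts were tested with edgeR 4.0.16 (quasi-likelihood test, TMM factors, mean count of at least 10, Benjamini-Hochberg adjustment over all windows or genes tested, threshold 0.05) in R 4.3.3, and DESeq2 1.42.0 was an alternative. Genotypes were compared within each day and over all mice with a day term, days were compared with a genotype term, and the interaction was tested. Sums over genes or promoters took 1 window per region and had library factors of their own, while CPM values used the TMM factors of the windows over 14 libraries. Each standard error was computed from the estimate and its F statistic. The tests were checked on simulated counts.

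Named windows were, for each gene, the strongest within 1 kb, the strongest beyond 1 kb and that with the smallest p-value over both days, and, for each comparison, the member window with the smallest p-value. Members and lists were chosen with earlier results of these data known. Replicates differed by more than counting error (chi-square per degree of freedom 1.63 to 2.46 over 18 pairs). Alternatives were other normalizations and filters, 1 window per region, other assignment distances, the replicate number as a block, the mouse name prefix, each mouse left out and, chosen after seeing the data, the 2 libraries lowest near start sites left out and the sums scaled as the windows. Some genes that the naming rules select are not reported here. Figures were drawn with Python 3.11.15.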

Additional observations from a re-analysis of the deposited data

Results flagged for a closer look

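On day 3, 74 groups of 4 mice were examined for a mouse whose gap to the nearest of the others took up most of the group's range (above Dixon's 95% critical value), and 4 were found, where chance gives about 3.7 (1 in 20). The Klf2 window 60 bp upstream of the start was at 41.5 CPM in R26TIR1(F74G) day 3 replicate 3 and at 59.5 to 59.6 CPM in the other 3 mice. The Klf6 promoter level in the same mouse was 143 CPM, beside 165 to 167 CPM. This library was among the 2 with the lowest share of counts near start sites (42.4%). The Klf3 window 21596 bp upstream was at 6.29 CPM in R26TIR1(F74G) day 3 replicate 1, the shallowest library, beside 2.53 to 3.17 CPM. The Klf6 window 82875 bp upstream was at 3.78 CPM in R26WT day 3 replicate 4, beside 5.53 to 5.89 CPM. No interaction passed the threshold.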

How the results depend on the processing

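Of 190 counts of called member windows or genes under alternatives, 184 were as in the values reported above. For day 7 against day 3, total counts, a mean count of at least 50 and leaving out the 2 libraries lowest near start sites (chosen after seeing the data) each gave 1 called member window, Klf2 534 bp downstream, and leaving out single mice gave 0 to 1. DESeq2 called 2 member genes over both days, Klf4 and Klf6 (against 1.81% of all genes it gave an adjusted p). The cause was not tested. With the replicate block, which gave 0 called windows and genes, the sums of Klf4 (0.13, adjusted p = 0.237) and Klf6 (0.11, adjusted p = 0.199) were on the same side of the threshold, and no other call changed in the genotype comparisons, to which it was applied. It was not run between days or for the interaction. Same-numbered mice did not deviate together (correlations −0.079 to 0.065), so the number was not taken as a pairing. Leaving out the filter on low counts changed no call. In the comparisons over all mice it could not, because every deposited window already passed that filter.

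Of 31 named windows and sums, 24 kept their sign throughout. The others lay near 0 between genotypes over both days. Klf4 17650 bp downstream was 0.023 with total counts, 0.029 with the stricter count minimum, 0.0034 with 1 window per region and −0.062 to 0.039 without single mice. Klf6 201 bp upstream was −0.0046 with the prefix as a term and −0.045 to 0.033 without single mice. The Klf3 sum was −0.00024 with the prefix, −0.0041 within 25 kb, −0.035 with the scaling of the windows and −0.020 to 0.029 without single mice. The Klf10 sum was −0.034 with the scaling of the windows, −0.020 without the 2 lowest libraries and −0.017 to 0.018 without single mice. Without single mice, Klf3 22623 bp upstream ran from −0.033 to 0.099, Klf4 149 bp upstream from −0.00076 to 0.079 and Klf6 15736 bp upstream from −0.00062 to 0.067.

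Among member windows, 148 had a mean count of at least 50. The other windows were read more coarsely, and 3 against 3 mice on day 7 limit the precision there.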
